A study of Homo sapiens with 42 samples.

Results

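Chromatin loops around TFRC, the gene of transferrin receptor 1, were followed in K562 cells during treatment with PMA. The rule for the loops uses position only, and the region was picked with earlier results of these data known. A loop belonged to the TFRC region when an anchor started between 195600000 and 196600000 on chromosome 3 of GRCh38. This gave 21 of the 33914 loops of the deposited table, and 20 of them had enough contacts for a test. A loop here is a pair of anchors, stretches of 10 kb that lie on the same chromosome, and its value is the number of Hi-C contacts joining them. K562 is an established human leukemia cell line, used as WT cells, and PMA is a phorbol ester that drives these cells toward a megakaryocyte-like state. All groups were K562 of the same genotype and differed in the time of 25 nM PMA: 0 h (untreated), 6 h and 72 h, with 4 biological replicates each. K562 is 1 cell line. The labels do not say whether the biological replicates came from separate cultures, so p-values measure only the spread between these samples, which may be technical.

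Transferrin receptor 1 sits on the cell surface, binds transferrin loaded with iron and carries it into endosomes, where the iron is released. Erythroid cells need much iron for heme, and TFRC is strongly expressed in erythroid precursors and in dividing cells, K562 among them. A chromatin loop brings its anchors close together in the nucleus, and anchors often hold CTCF and cohesin, promoters or enhancers. Hi-C counts such contacts and does not measure RNA, so neither TFRC expression nor any marker of erythroid or megakaryocyte cells could be checked in these data.

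TFRC (gene ID 7037) lies at chr3:196049284-196082090 on the minus strand, so that its start is at the higher coordinate. No anchor of the 21 loops held an end of TFRC. The anchor nearest to the start, chr3:196070001-196080000, lies inside the gene and stops 2.09 kb short of the start. The anchors were 31 in number, and 8 of them served more than 1 loop of the region. The busiest, chr3:196510001-196520000, served 4 loops and lies over SMCO1, which encodes a membrane protein of little known function. The anchor chr3:196190001-196200000 served 3 loops and holds the end of ZDHHC19, which encodes a protein palmitoyltransferase. Loops of the region were 40 kb to 810 kb long with a median of 170 kb, against 440 kb over the whole table.

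Gene starts at or beside the anchors are shown first. Of the 31 anchors, 15 lie over some part of a protein-coding gene. A gene start was placed in 5, counting only genes whose strand was known. Of 8 promoters looked up, 8 were found in the RefSeq promoter table of GRCh38.p14, and 4 are printed. TFRC was taken because its start lies just outside the anchor shared by 2 of its loops. SMCO1 was taken because its promoter, as placed in that table, lies inside the anchor of 4 loops. The RefSeq gene table instead puts the SMCO1 start in the next anchor, chr3:196520001-196530000, that of loop8004. SLC51A has its promoter inside an anchor of a loop that spans TFRC, and XXYLT1 in an anchor of the only gained loop. Each run is the 250 bases before the gene start, 5′ to 3′ on the strand of the gene, and capitals mark the motif letters that were searched. The TFRC run is chr3:196082091-196082340 (minus strand), SMCO1 is chr3:196515347-196515596 (minus strand), SLC51A is chr3:196216284-196216533 (plus strand) and XXYLT1 is chr3:195271160-195271409 (minus strand).
TFRC: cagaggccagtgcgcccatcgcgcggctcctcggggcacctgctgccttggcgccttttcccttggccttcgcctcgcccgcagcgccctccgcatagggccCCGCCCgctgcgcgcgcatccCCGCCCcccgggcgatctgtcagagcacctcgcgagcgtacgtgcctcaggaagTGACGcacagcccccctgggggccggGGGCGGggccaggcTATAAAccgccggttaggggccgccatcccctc
SMCO1: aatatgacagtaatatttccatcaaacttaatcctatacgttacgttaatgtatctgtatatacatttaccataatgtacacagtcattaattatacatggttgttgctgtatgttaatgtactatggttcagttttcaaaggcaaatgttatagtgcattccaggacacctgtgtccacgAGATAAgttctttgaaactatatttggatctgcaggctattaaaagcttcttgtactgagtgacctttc
SLC51A: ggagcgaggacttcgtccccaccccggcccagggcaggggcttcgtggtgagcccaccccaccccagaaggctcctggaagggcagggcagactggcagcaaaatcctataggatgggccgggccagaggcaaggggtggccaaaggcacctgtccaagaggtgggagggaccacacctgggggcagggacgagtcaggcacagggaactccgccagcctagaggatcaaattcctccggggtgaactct
XXYLT1: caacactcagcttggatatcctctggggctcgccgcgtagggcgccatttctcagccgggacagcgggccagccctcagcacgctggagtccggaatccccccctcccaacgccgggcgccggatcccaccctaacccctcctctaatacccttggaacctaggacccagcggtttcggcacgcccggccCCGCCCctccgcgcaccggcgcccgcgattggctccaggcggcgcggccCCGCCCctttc
The motifs were searched on both strands in 35116 promoters of the same length: a GC box (GGGCGG, in 42.6% of promoters), a CRE core (TGACG, 21.2%), a TATA box (TATAAA, 10.7%), an AP-1 site (TGANTCA, 6.57%), an E-box (CACGTG, 6.34%) and a GATA site (AGATAA, 9.17%). The capitals in these 4 runs do not overlap each other. In the TFRC promoter the GC box matched 3 times, at -148, -127 and -47 from the gene start, with the first letter of each match counted. A CRE core matched at -73 and a TATA box at -33. The SMCO1 promoter held a GATA site at -69, XXYLT1 held GC boxes at -60 and -11, and SLC51A held none of the 6 motifs. A match is a run of letters and does not show that a factor binds there. The share of G and C was 74.4% for TFRC, 33.2% for SMCO1, 65.6% for SLC51A and 71.2% for XXYLT1, beside a median of 58% over all promoters.

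The libraries held 736929 to 1472197 contacts over all loops of the table. The loops of the region held 3 to 641 contacts per library each, and the median over the tested ones of the mean count per library was 56.3, against 29.2 for all tested loops. By counting error alone, 56 contacts carry a 95% interval of 42.3 to 72.7 and 10 contacts one of 4.8 to 18.4 (exact Poisson limits). Replicates 3 and 4 of 72 h agreed within sampling noise over all loops (chi-square over degrees of freedom 1.0031). They count as 1 sample wherever a mean ± SD is given, which leaves n = 3 at 72 h. The tests of single loops below count them as 2 libraries unless summing is stated. Within replicates 3 and 4 alone, 72 h may therefore be 1 sample, and 72 h calls there are not independent replication. Replicates 3 and 4 were also the closest pair at 0 h (1.0179) and at 6 h (1.0229). They differed beyond sampling noise there (chi-square p = 0.0253 and 0.00621) and are counted separately, but this does not show that they are independent. Replicates 1 and 2 were made with 3 technical replicates and replicates 3 and 4 with 2, and these pairs are treated here as batches.

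Values below are normalized contacts: contacts of a loop per 1000000 contacts in tested loops of that library, after TMM scaling. A loop is called lost when its contacts were lower with an adjusted p under 0.05 (edgeR quasi-likelihood test over all 24132 tested loops, Benjamini-Hochberg adjustment), and gained when they were higher. Against 0 h, 10 of the 20 tested loops of the region were lost at 72 h and 1 was gained. Over all tested loops, 16.9% were lost and 16.7% were gained in the same comparison. Called in either direction by edgeR were 11 of the 20, and 33.6% of all tested loops. DESeq2 called 7 of the 20, but its share over all loops is not given here. The region's loops had a median log2 fold change of -0.36 at 72 h, all tested loops one of 0.01, and 19 of the region's 20 values were negative. Among the 1760 other tested loops of chromosome 3, 15.5% were lost and the median was 0.04. No test was made of the region as a list.

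**Figure D1:**
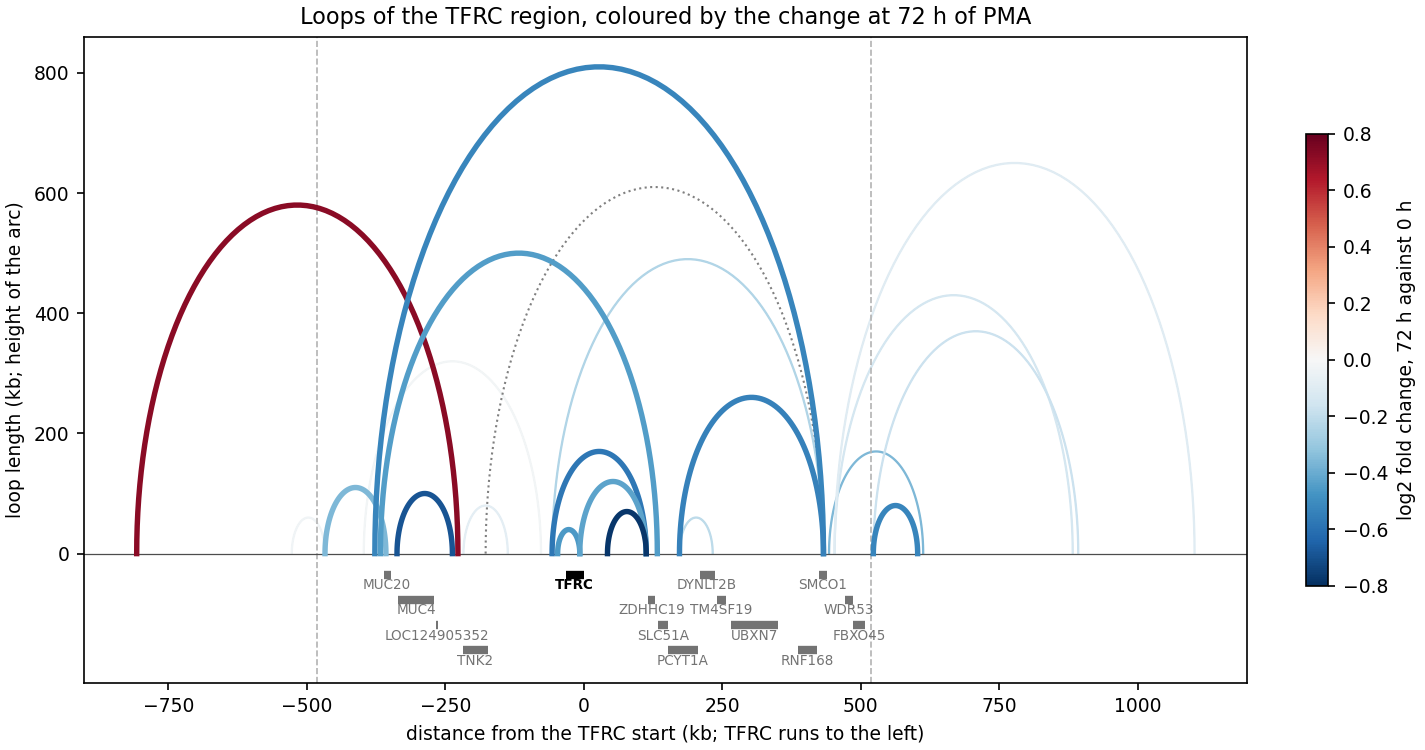
Loops of the TFRC region drawn as arcs over distance from the TFRC start (kb), with the height showing loop length (kb) and colour the log2 fold change at 72 h against 0 h. Thick arcs passed the test, the dotted arc was not tested, dashed lines bound the window and bars below are genes; 10 arcs are thick and blue (lost) and 1 is thick and red (gained, 0.72).

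The loops that share the anchor inside TFRC both fell. The longer one, loop8000, joins chr3:196070001-196080000 to the ZDHHC19 end at chr3:196190001-196200000, across 120 kb, and spans the TFRC start. It held 167, 132, 154 and 136 normalized contacts in 0 h replicates 1 to 4, 143, 121, 136 and 139 at 6 h, and 111, 106, 99.8 and 121 at 72 h. Every 72 h library was below every 0 h library, and the 6 h libraries overlapped those of 0 h. The means were 147 ± 16 (SD, n = 4) at 0 h, 135 ± 9.8 (n = 4) at 6 h and 109 ± 2.6 (n = 3) at 72 h. Its log2 fold change was -0.43 (SE 0.10, adjusted p = 0.00062 by edgeR) at 72 h and -0.14 (SE 0.10, adjusted p = 0.464) at 6 h.

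The shorter one, loop7999, reaches 40 kb from the same anchor, past the TFRC end, to chr3:196030001-196040000, which holds no protein-coding gene. Its normalized contacts were 135, 115, 137 and 134 at 0 h, 104, 114, 102 and 133 at 6 h, and 84.9, 90.4, 95.7 and 104 at 72 h. The 72 h libraries again lay below all 0 h libraries, while those of 6 h overlapped both. The means were 130 ± 10 (SD, n = 4), 113 ± 14 (n = 4) and 91.6 ± 7.4 (n = 3). At 72 h the log2 fold change was -0.46 (SE 0.11, adjusted p = 0.00035 by edgeR), and at 6 h it was -0.20 (SE 0.11, adjusted p = 0.3). Within replicates 1 and 2 alone both loops were lost at 72 h, loop7999 by -0.53 (adjusted p = 0.00775 by edgeR) and loop8000 by -0.48 (0.0125). Within replicates 3 and 4, where 72 h may be 1 sample, their values were -0.43 and -0.38. With a correction for loop length the 72 h value of loop7999 was -0.28 (adjusted p = 0.0322).

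These loops were compared within each library, since a ratio of 1 loop to another does not depend on the scaling of the library. The log2 ratio of loop7999 to loop8000 was -0.31, -0.20, -0.17 and -0.02 in the 0 h libraries, -0.46, -0.08, -0.41 and -0.06 at 6 h, and -0.39, -0.23, -0.06 and -0.22 at 72 h. The ratios of the 3 times overlapped. The mean ratio differed between 72 h and 0 h by -0.08 (p = 0.4, two-sided exact permutation test, n = 4 and 3, adjusted p = 0.626), between 6 h and 0 h by -0.08 (p = 0.514, adjusted p = 0.74) and the means at 72 h and 6 h were -0.26 and -0.25 (p = 0.914, adjusted p = 0.94, exact permutation test). The 72 h comparisons set 3 libraries against 4, where the smallest p such a test can give is 0.0571, so they could not pass the threshold.

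**Figure D2:**
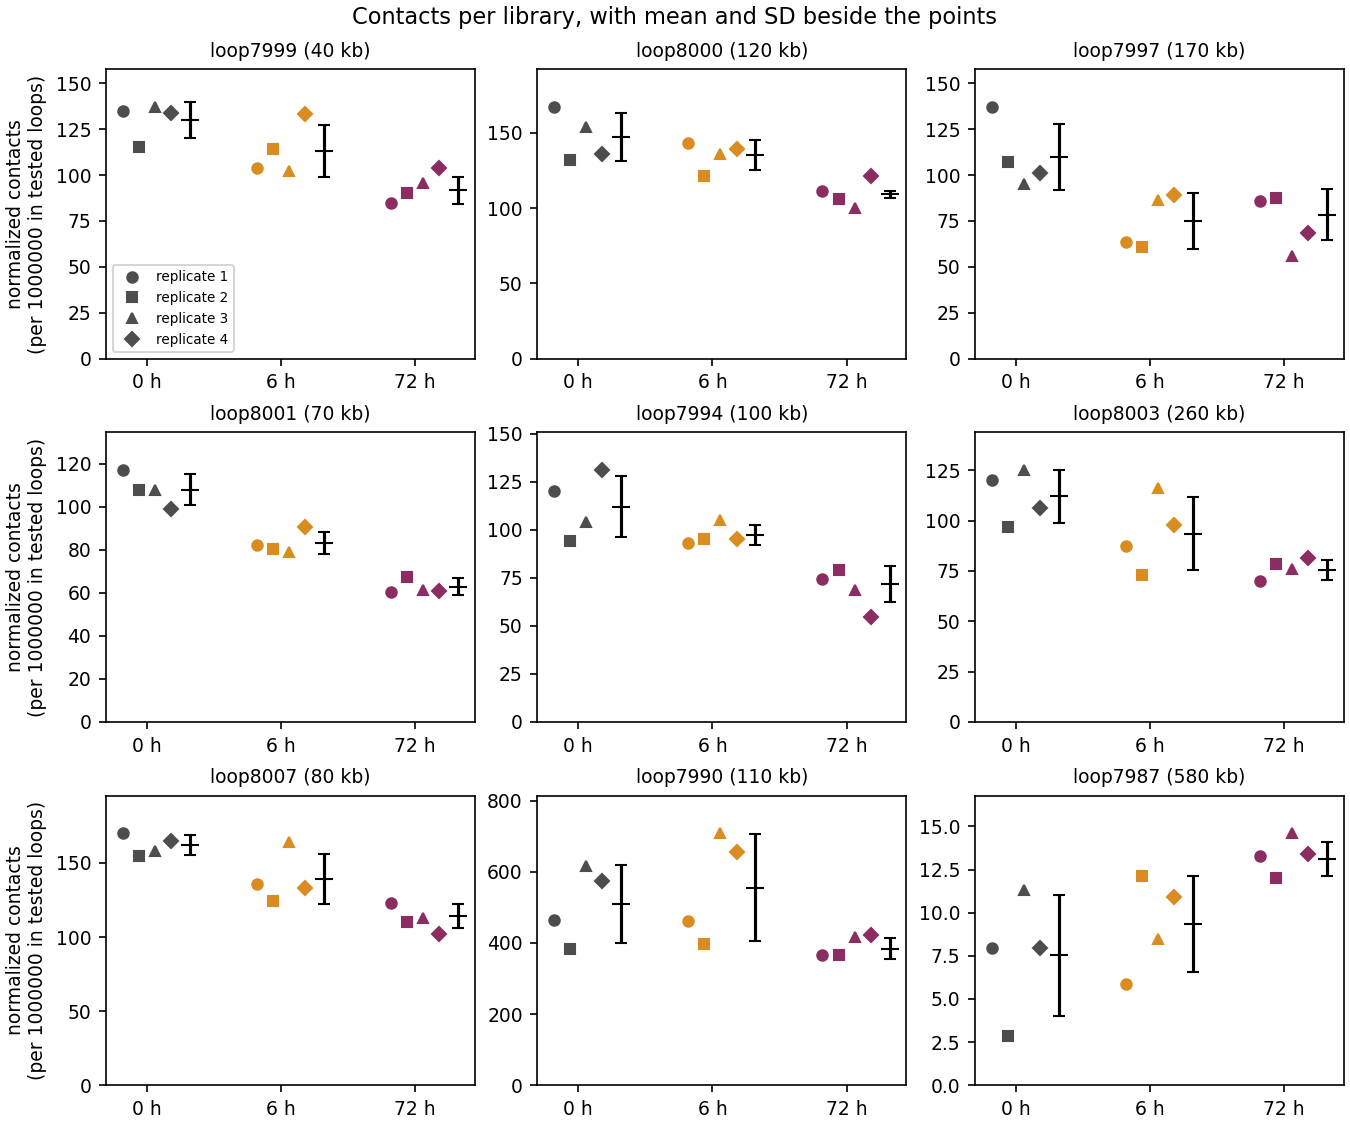
Normalized contacts per library (vertical axes, per 1000000 contacts in tested loops) at 0 h, 6 h and 72 h for 9 loops of the TFRC region; each point is a library, its shape the replicate, and the bar beside the points is the mean ± SD (n = 4, 4 and 3). In loop8001 the 4 libraries of 72 h sit between 60.2 and 67.3, below all 6 h libraries (79.2 to 90.5), which sit below all 0 h libraries (98.9 to 117); in loop7987 the 72 h libraries sit highest (12 to 14.6).

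The ZDHHC19 end was also joined to points on either side of TFRC, and both of those loops fell at 6 h as well as at 72 h. They were the only lost loops of the region at 6 h, 2 of 20 with none gained, where 4.07% of all tested loops were lost and 2.34% were gained, 6.41% in all. Both are shorter than 200 kb, and 9.56% of the 8190 other tested loops of up to 200 kb were lost at 6 h. These 2 loops were also the only ones of the 20 whose 6 h libraries all lay below those of 0 h. This held for 5.77% of all tested loops, and the reverse for 4.97%. The steepest fall of the region was that of loop8001, which spans 70 kb from chr3:196120001-196130000, a stretch without genes before the TFRC start, to chr3:196190001-196200000. It held 117, 108, 108 and 98.9 normalized contacts at 0 h, 82.4, 80.4, 79.2 and 90.5 at 6 h, and 60.2, 67.3, 61.4 and 60.7 at 72 h. The 3 times did not overlap at all, with 72 h lowest. The means were 108 ± 7.2 (SD, n = 4), 83.1 ± 5.1 (n = 4) and 62.8 ± 3.9 (n = 3). The log2 fold change was -0.38 (SE 0.12, adjusted p = 0.0286 by edgeR) at 6 h and -0.78 (SE 0.12, adjusted p = 3.3e-08) at 72 h, a fall of 41.9%. The 6 h call was lost in 9 of 26 alternatives, among them DESeq2 (adjusted p = 0.069) and the fit without 0 h replicate 1 (0.128) or without 6 h replicate 1 (0.066), 2 (0.076) or 3 (0.055). The 72 h call was kept in all 26.

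The other one, loop7997, spans TFRC whole: it joins chr3:196020001-196030000 to the ZDHHC19 end across 170 kb. It held 137, 107, 95.3 and 101 normalized contacts at 0 h, 63.7, 60.7, 86.3 and 89.3 at 6 h, and 85.8, 87.3, 56.2 and 68.7 at 72 h. Both treated groups lay below all 0 h libraries and overlapped each other. The means were 110 ± 18 (SD, n = 4), 75.0 ± 15 (n = 4) and 78.5 ± 14 (n = 3). At 6 h its log2 fold change was -0.60 (SE 0.12, adjusted p = 0.00043 by edgeR), and at 72 h it was -0.58 (SE 0.12, adjusted p = 4.6e-05). By batch, the 6 h value was -0.98 (adjusted p = 1.59e-05) within replicates 1 and 2 and -0.16 (adjusted p = 0.743) within replicates 3 and 4. At 72 h it was -0.52 (adjusted p = 0.00831 by edgeR) within replicates 1 and 2 and -0.63 within replicates 3 and 4. The difference between the batches was not tested.

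The anchor at the ZDHHC19 end allowed the same comparison within libraries. The log2 ratio of loop8000 to loop8001 was 0.51, 0.28, 0.51 and 0.46 in the 0 h libraries, 0.79, 0.58, 0.77 and 0.61 at 6 h, and 0.88, 0.66, 0.70 and 0.98 at 72 h. All ratios of 6 h and 72 h lay above those of 0 h. The mean ratio was higher by 0.25 at 6 h (p = 0.0286, exact permutation test, two-sided) and by 0.36 at 72 h (p = 0.0571). These p-values are the smallest that 4 against 4 and 4 against 3 libraries can give, and over the 36 tests on 12 pairs of loops that share an anchor both became 0.411 after Benjamini-Hochberg adjustment. None of the 36 passed the threshold. All pairs other than that of loop7999 and loop8000 were added after the data were seen.

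Beyond the ZDHHC19 end, the region of PCYT1A and SMCO1 gave a further strong loop. PCYT1A encodes the rate-limiting enzyme of phosphatidylcholine synthesis, and loop8003 joins its body at chr3:196250001-196260000 to the SMCO1 anchor at chr3:196510001-196520000 across 260 kb. It held 120, 96.8, 125 and 106 normalized contacts at 0 h, 87.3, 72.9, 116 and 97.7 at 6 h, and 69.9, 78.3, 75.9 and 81.2 at 72 h. The 72 h libraries were below all 0 h libraries, with 6 h in between and overlapping both. Its log2 fold change was -0.54 (SE 0.12, adjusted p = 1e-04 by edgeR) at 72 h and -0.28 (SE 0.12, adjusted p = 0.131) at 6 h. The mean fell from 112 ± 13 (SD, n = 4) to 75.6 ± 4.9 (n = 3). From the same PCYT1A anchor, loop8002 reaches 60 kb to DYNLT2B, a dynein light chain gene, and was not called at 72 h (log2 fold change -0.21, 95% interval -0.42 to 0.01), although its 72 h libraries (90.2 to 95.7) all lay below those of 0 h (97.8 to 112).

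At the far side, loop8007 joins chr3:196600001-196610000 to chr3:196680001-196690000, 80 kb apart, neither of which holds a gene. Its normalized contacts were 170, 155, 158 and 165 at 0 h, 136, 124, 164 and 133 at 6 h, and 123, 110, 113 and 102 at 72 h. All 72 h libraries lay below all others. The log2 fold change at 72 h was -0.53 (SE 0.10, adjusted p = 1.5e-05 by edgeR), and at 6 h it was -0.23 (SE 0.10, adjusted p = 0.163). The mean fell from 162 ± 6.9 (SD, n = 4) at 0 h to 114 ± 8.2 (n = 3) at 72 h.

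On the lower side, toward the mucin genes, loop7994 joins the end of MUC4, which encodes a membrane mucin, at chr3:195740001-195750000 to chr3:195840001-195850000, a stretch with noncoding genes. It held 120, 94.0, 104 and 131 normalized contacts at 0 h, 93.1, 95.3, 105 and 95.3 at 6 h, and 74.3, 79.3, 68.6 and 54.5 at 72 h. The 72 h libraries lay below all of 0 h and of 6 h, and those of 0 h and 6 h overlapped. The means were 112 ± 16 (SD, n = 4), 97.1 ± 5.2 (n = 4) and 71.7 ± 9.2 (n = 3). The log2 fold change at 72 h was -0.69 (SE 0.12, adjusted p = 9.9e-07 by edgeR), and at 6 h it was -0.21 (SE 0.12, adjusted p = 0.277).

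The region's densest loop lies between MUC20P1, a pseudogene copy of the mucin gene MUC20, and MUC20 itself. This loop7990 joins chr3:195610001-195620000 to chr3:195720001-195730000 across 110 kb, and it held 464, 382, 616 and 573 normalized contacts at 0 h, 461, 396, 708 and 655 at 6 h, and 365, 367, 416 and 422 at 72 h. Replicates 3 and 4 were higher than 1 and 2 at every time, and the groups overlapped. Its 0 h mean was 7.96 times the median of the 497 loops of its length. The log2 fold change at 72 h was -0.36 (SE 0.09, adjusted p = 0.00052 by edgeR). It was -0.23 (adjusted p = 0.164) within replicates 1 and 2 and -0.50 within replicates 3 and 4, and DESeq2 did not call it (adjusted p = 0.172). Reads from near-identical copies can be placed at either copy, how such reads were treated is not given in the sources used here, and this value is therefore uncertain.

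Longer loops over TFRC were weaker in contacts. The 500 kb loop7993 starts at chr3:195710001-195720000 and ends at chr3:196210001-196220000, where the starts of ZDHHC19 and SLC51A lie, the latter a subunit of a bile acid transporter. It held 29.0, 30.4, 32.6 and 43.2 normalized contacts at 0 h, 40.2, 32.7, 32.5 and 30.2 at 6 h, and 15.9, 31.1, 25.0 and 24.1 at 72 h. A single 72 h library, replicate 2, overlapped those of 0 h and 6 h. The log2 fold change at 72 h was -0.45 (SE 0.18, adjusted p = 0.0466 by edgeR), and without 72 h replicate 1 it was -0.30 (adjusted p = 0.24). Leaving out 0 h replicate 3 (0.057) or 4 (0.186), or 72 h replicate 3 (0.054) or 4 (0.069), also ended the call. The 810 kb loop7992, the longest, reaches the SMCO1 anchor. Its libraries held between 19.9 and 27.6 normalized contacts at 0 h and between 12.5 and 20.1 at 72 h, with a log2 fold change of -0.53 (SE 0.21, adjusted p = 0.0373), and 10 of 26 alternatives did not call it. Without 0 h replicate 1, 3 or 4 its adjusted p was 0.082, 0.074 and 0.064, and without 72 h replicate 1 or 3 it was 0.119 and 0.108.

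The single gained loop ends below TFRC and does not span it. This loop7987 joins chr3:195270001-195280000, with the start of XXYLT1, a xylosyltransferase that acts on Notch, and an end of ACAP2, a regulator of Arf proteins, to chr3:195850001-195860000, 580 kb away. It held 7.97, 2.85, 11.3 and 7.96 normalized contacts at 0 h, 5.88, 12.1, 8.49 and 10.9 at 6 h, and 13.3, 12, 14.6 and 13.4 at 72 h. All 72 h libraries lay above all 0 h libraries. It rose by 0.72 on the log2 scale (SE 0.28, 95% interval 0.17 to 1.27, adjusted p = 0.0352 by edgeR). The values rest on 3 to 15 contacts per library, and within replicates 3 and 4 the log2 fold change was 0.46 (adjusted p = 0.434). The call was lost in 11 of 25 alternatives, with an adjusted p of 0.17 in DESeq2, 0.199 without 0 h replicate 2, 0.065 and 0.052 without 0 h replicates 1 and 4, and 0.063, 0.077 and 0.065 without 72 h replicates 1, 3 and 4.

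The other 9 tested loops were not called at 72 h, with log2 fold changes from -0.36 to -0.02 and adjusted p from 0.0544 to 0.953 by edgeR. They include the 80 kb loop7995 from the end of TNK2, a tyrosine kinase gene (-0.08, 95% interval -0.40 to 0.24), and the 490 kb loop7998 over TFRC to the SMCO1 anchor (-0.24, -0.55 to 0.07). They also include loop8005 and loop8006 from chr3:196530001-196540000 to PIGZ, a GPI anchor mannosyltransferase gene, and to DLG1, a scaffold protein gene (-0.14, -0.48 to 0.19, and -0.10, -0.70 to 0.50). The remaining ones were loop7989 (-0.03), loop7991 (-0.02), which starts at SDHAP2, a pseudogene with near-identical copies, loop8002 (-0.21), loop8004 (-0.36) and loop8008 (-0.17). Among the short ones, loop7989 held 65.2 to 73.9 normalized contacts at 0 h, 52.3 to 67.6 at 6 h and 59.3 to 84.8 at 72 h, loop7995 held 32.3 to 46.6, 36.8 to 47.7 and 30.1 to 41.1, and loop8004 held 39.8 to 54.3, 42.2 to 50 and 35.4 to 41.2. Among the longer ones, loop7991 held 23.7 to 28.2, 21.7 to 39.3 and 17.9 to 33.6, loop7998 33.9 to 47.8, 30.2 to 44.9 and 31.2 to 42.5, and loop8005 30.4 to 46.4, 28 to 47.1 and 30.1 to 35.7. For loop8006 these ranges were 4.75 to 22.7, 6.54 to 14.2 and 6.02 to 14.3, and for loop8008 they were 40.8 to 52.3, 40.2 to 51 and 31.2 to 48.9. In each of these 8 loops the libraries of 0 h and 72 h overlapped. The loop that was not tested, loop7996, joins the TNK2 start to the SMCO1 anchor over 610 kb and held 8.54 to 12.5 normalized contacts at 0 h, 4.83 to 10.8 at 6 h and 4.02 to 7.28 at 72 h.

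**Figure D3:**
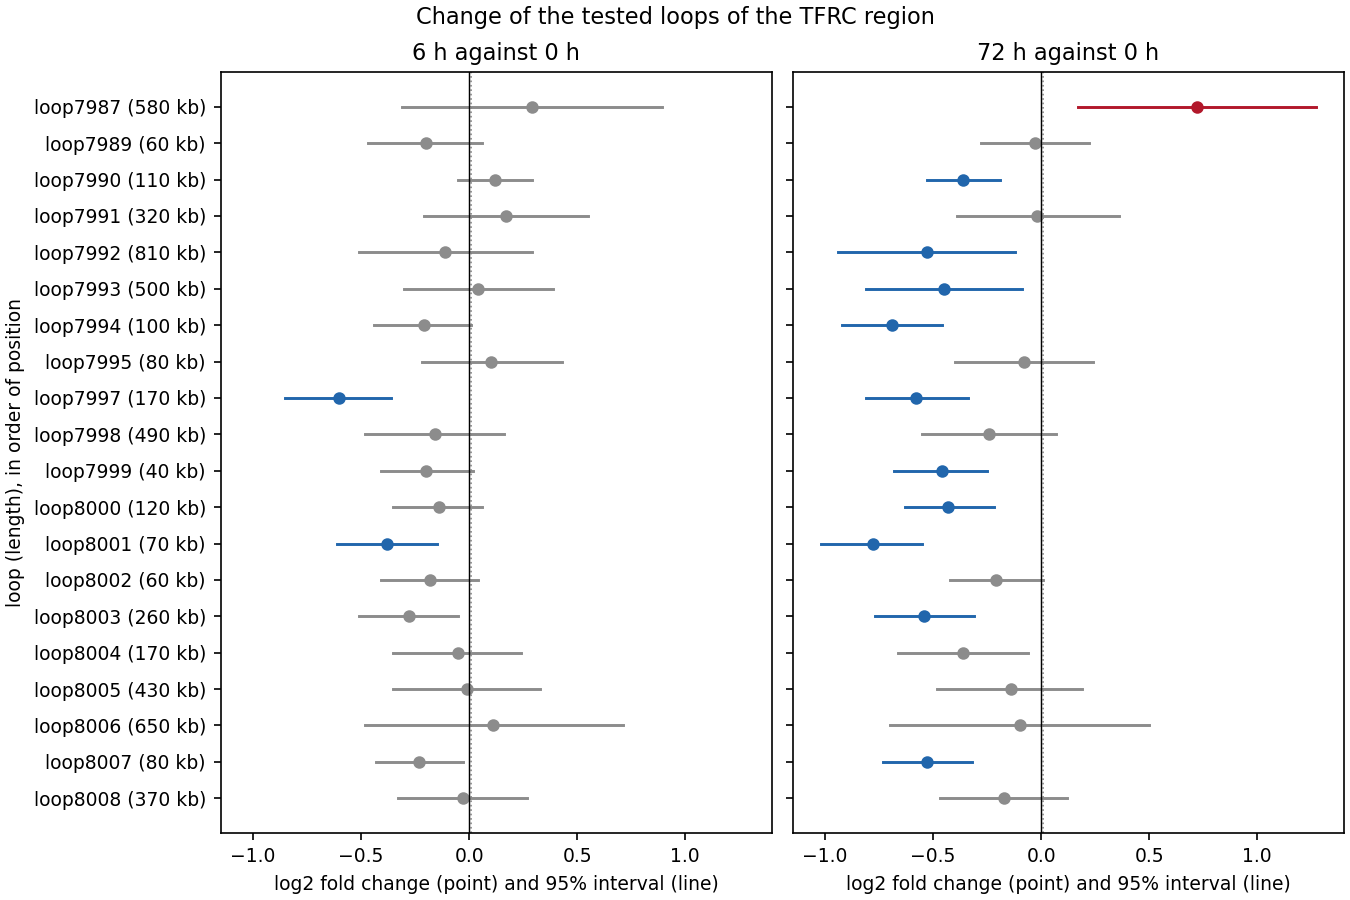
Log2 fold change (points) with its 95% interval (lines) for the 20 tested loops in order of position, at 6 h and at 72 h against 0 h; blue loops were lost, red gained and grey not called. At 6 h 2 loops are blue; at 72 h 10 are blue and 1 is red, and 19 of 20 points lie below 0.

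By place relative to the gene, 4 of the 5 tested loops that enclose the TFRC start were lost at 72 h, where 16.9% of all tested loops were lost and 16.7% gained, with log2 fold changes from -0.58 to -0.24 and a median of -0.45. Of 8 tested loops at higher coordinates, 3 were lost (median -0.28), and of 7 at lower coordinates 3 were lost and 1 was gained (median -0.08). All 13 tested loops with both anchors inside the window had negative values, and 9 were lost, where 49.0% of all tested loops had negative values and 16.9% were lost. Of the 20 tested loops, 8 had all 72 h libraries below all 0 h libraries and 1 had them above, where 14.1% and 14.2% of all tested loops did so. Taken alone, replicates 1 and 2 gave 7 lost loops at 72 h and a median of -0.30, and replicates 3 and 4 gave a median of -0.40. The shares of all loops lost within each batch are not given here. Neither batch called loop7987, loop7992 or loop7993.

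The 6 h and 72 h comparisons share the 0 h libraries, so the change between the treated times was read from its own test. From 6 h to 72 h, 6 of the 20 loops were lost and none was gained, where 9.81% and 10.7% of all tested loops were, 20.5% in all. The 72 h libraries lay wholly below those of 6 h for 5 of the 20 loops and wholly above for none, where 9.43% and 10.4% of all tested loops did so. Of the 20 loops, 8 had an unadjusted p under 0.05 by edgeR, as did 8028 of all 24132 tested loops. DESeq2 called 1 of the 20. The count was 3 with 72 h replicates 3 and 4 summed, 3 without 6 h replicate 1 or 3 or 72 h replicate 3, 3 within replicates 3 and 4 and 0 within replicates 1 and 2. The log2 fold changes of the lost loops were -0.48 for loop7990, -0.49 for loop7993, -0.48 for loop7994, -0.28 for loop8000, -0.40 for loop8001 and -0.29 for loop8007. Of 26 alternatives, 14 did not call loop7993, 12 loop8000, 9 loop8007, 3 loop8001, 2 loop7990 and 1 loop7994. Leaving out 1 library ended the call of loop7993 for 6 h replicates 1, 2 and 3 and 72 h replicates 1, 3 and 4, with adjusted p from 0.058 to 0.241. It ended that of loop8000 for 6 h replicates 1, 3 and 4 and 72 h replicates 1, 2 and 3 (0.073 to 0.137), and that of loop8007 for 6 h replicates 1 and 3 and 72 h replicates 2, 3 and 4 (0.055 to 0.165). Within replicates 1 and 2 the value was -0.23 for loop7990, -0.30 for loop7994 and -0.16 for loop8007, and within replicates 3 and 4 it was -0.32 for loop7993 and -0.45 for loop8007. The adjusted p was 0.0473 for loop8000 and 0.0803 for loop7999, which was not called (-0.27, SE 0.11). For loop7997 the value was 0.03 (SE 0.13, 95% interval -0.23 to 0.29). The median over the 20 loops was -0.13 from 0 h to 6 h and -0.24 from 6 h to 72 h, beside 0.01 and 0.00 over all tested loops.

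Short loops fell more often than long ones in the whole table, so the loops were also set beside loops of like length. Of 11 tested loops of up to 200 kb, 7 were lost at 72 h, with a median log2 fold change of -0.43. Among the 8190 other tested loops of that length, 29.5% were lost and the median was -0.12. Of 9 longer ones, 3 were lost and 1 was gained (median -0.17), while 10.4% of the 15922 other long loops were lost (median 0.09). Set against loops of exactly its own length, loop8001 lay low: 1.27% of 551 other loops of 70 kb had a lower value at 72 h. For loop7994 this share was 2.24% of 491, for loop8000 20.9% of 474 and for loop7999 15.4% of 371. With a correction for loop length the median of the 20 loops was -0.31.

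At 0 h several of these loops were strong for their length. The 0 h mean of loop8000 was 2.44 times the median of the 477 loops of 120 kb, and that of loop7997 was 2.36 times the median of its 500. The ratio was 3.85 for loop8003 and 1.98 for loop8007. It was 1.20 for loop7999 and 1.29 for loop8001, so those lay nearer the middle of their lengths, at the percentiles 62.1 and 70.1.

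Summed over all 21 loops, the region held 0.181%, 0.158%, 0.188% and 0.188% of the loop contacts of the 0 h libraries, 0.160%, 0.152%, 0.190% and 0.181% at 6 h, and 0.134%, 0.138%, 0.139% and 0.143% at 72 h. Every 72 h library lay below every library of the other times, which overlapped. The mean was 0.179% ± 0.015 (SD, n = 4) at 0 h, 0.171% ± 0.018 (n = 4) at 6 h and 0.138% ± 0.0037 (n = 3) at 72 h. No p is given for this share.

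Loops elsewhere that followed loop8000 most closely over the 12 libraries were looked up among 4359 loops with enough contacts. The highest Pearson correlations of log2 normalized contacts were 0.952 for loop29017 (320 kb, chromosome 16), 0.943 for loop28183 (60 kb, chromosome 15) and 0.94 for loop21884 (30 kb, chromosome 11), which has ends of MED19, a Mediator subunit gene, and ZDHHC5, a palmitoyltransferase gene, in its anchors. They were 0.937 for loop12565 (80 kb, chromosome 5) and 0.935 for loop4723 (50 kb, chromosome 2), with an end of CATIP in an anchor. Their log2 fold changes at 72 h were -0.63 to -0.39, which the choice of loops that follow loop8000 bears on. The points share libraries and depth, and the correlations are a description. Within the region the correlation with loop8000 was highest for loop8001 and loop8003 (both 0.85), followed by loop7999 and loop8007 (both 0.79), and it was -0.47 for the gained loop7987.

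Loops at other genes of iron uptake, storage and sensing and of heme synthesis were counted from a list of 36 genes. An end of 16 of them lay in a loop anchor, and 29 such loops were tested; TFRC itself is not among the 16, as no anchor holds its ends. At 72 h 13 of the 29 were lost and 1 was gained, with a median log2 fold change of -0.20. At 6 h 6 were lost and none was gained (edgeR; 16.9% and 4.07% of all tested loops were lost at these times). The 6 calls at 6 h became 3 with the length correction, 3 without 6 h replicate 2 and 1 within either batch, and the 14 at 72 h became 9 with the length correction and 9 within replicates 1 and 2. With genes placed within 10 kb of an anchor, 54 loops were tested. Of these, 9 were lost and 1 was gained at 6 h, and 24 were lost and 4 gained at 72 h. This placement counts TFRC itself, with loop7999 and loop8000, both among the loops lost at 72 h and neither called at 6 h. With a gene end in the anchor, the 13 loops lost at 72 h were 40 kb to 90 kb long, apart from 2 at ISCU of 240 kb and 380 kb. Short loops were lost more often in the whole table. Outside the TFRC region, 29.5% of tested loops of up to 200 kb were lost at 72 h and 9.56% at 6 h.

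The ligand of the receptor, TF (transferrin), had a 150 kb loop, loop7091, that fell at 6 h (-0.69, SE 0.17, adjusted p = 0.00523 by edgeR) and rose again from 6 h to 72 h (0.61, SE 0.17, adjusted p = 0.00613). For heme synthesis, ALAD, which makes porphobilinogen, had 2 lost loops at 72 h (-0.50 and -0.27), and UROD, uroporphyrinogen decarboxylase, had the gained one (0.50, SE 0.16, adjusted p = 0.0117). For handling of iron and heme, lost loops at 72 h lay at PCBP1 (-0.42) and PCBP2 (-0.47), iron chaperone genes, FTL (-0.37), the ferritin light chain gene, SLC48A1 (-0.50 for each of 2), a heme transporter gene, and HMOX2 (-0.28), a heme oxygenase gene. ISCU, the scaffold gene of iron-sulfur cluster assembly, had 3 lost loops (-0.36, -0.61 and -0.76).

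The authors' deposited table puts 2 of the 21 loops in its lost class, loop7994 and loop8001, and the other 19 in its static class. It gives a log2 fold change at 72 h for 18 of them, and 17 are negative in the authors' deposited table. Its adjusted p is the same for both times, so it is not specific to 72 h and is unlike the 72 h test used here. It was under 0.05 for 7 loops, and all 7 were also called here at 72 h. In the authors' deposited table loop8000 had a 72 h log2 fold change of -0.35 with an adjusted p of 0.0599, and loop7999 had -0.39 with 0.0463. Of the 11 loops called here at 72 h, 9 are static in the authors' deposited table. Among these, loop7990, loop7997, loop7999, loop8003 and loop8007 have an adjusted p under 0.05 there. The class therefore does not rest on that threshold alone, and it is unlike the call made here.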

How the data were processed

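The authors deposited raw contact counts of 33914 loops in 30 columns, 1 per technical replicate, per the file headers. The 42 labelled samples are sequencing runs of these, and all columns were used. The deposited table also gives log2 fold changes, an adjusted p-value and anchor positions, which count from 0 there and from 1 here. The submitters' processing notes name Juicer 1.5.6, DESeq2, DESeq and hg38 without their roles. The loop caller and the treatment of multiply mapping reads are not given in the sources used here.

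Columns were summed into 12 libraries. Loops with enough counts (filterByExpr, minimum count 10, minimum total 15), 24132 in all, were fitted in 1 model of all libraries with no covariate (edgeR 4.0.16, R 4.3.3, TMM scaling, quasi-likelihood test, prior count 2, Benjamini-Hochberg adjustment over all tested loops). The test was tried on simulated data. A standard error is the log2 fold change divided by the root of F. A count includes the local background of its pixel. Ratios of loops took 0.5 added to each count and exact permutation tests (scipy 1.17.1). The fit was repeated with DESeq2 1.42.0, with library totals or DESeq2 size factors, with no filter or a stricter one, with a correction for loop length (loess, span 0.3), a replicate block, batches, technical replicates as libraries, summed replicates, only the times compared, stricter thresholds and leaving out each library.

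Genes were placed with RefSeq tables of GRCh38.p14, which has the coordinates of hg38. For SMCO1 the gene table's end, 196520955, lies beyond the promoter table's start. The region's loops and all gene lists were chosen with earlier results of these data known. By a rule written with them, values of every library are given for the loops at the anchor in TFRC and for the 8 other loops with the smallest p among those called in any comparison, and the other loops are given by ranges.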

Additional observations from a re-analysis of the deposited data

Results flagged for a closer look

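Of 40 groups of 4 libraries examined for 1 library far from the rest, 3 held one, where chance gives about 1 in 20, or 2. For loop7999, at the anchor in TFRC, 0 h replicate 2 held 115 normalized contacts, and the other 0 h libraries held 134 to 137. For loop8002, from PCYT1A to DYNLT2B, the same library held 97.8, and the others held 110 to 112. For loop8006, from chr3:196530001-196540000 to DLG1, 0 h replicate 4 held 22.7 and the others 4.75 to 7.53, which are 20 contacts against 5 to 7. Without 0 h replicate 2, the median log2 fold change of the 20 tested loops was -0.49 at 72 h and -0.21 at 6 h, against -0.36 and -0.13 with it.

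The change from 0 h differed between 6 h and 72 h for 6 loops, by edgeR's test of 72 h against 6 h (adjusted p under 0.05). The differences on the log2 scale were -0.48 for loop7990 (MUC20), -0.49 for loop7993 (to SLC51A and ZDHHC19), -0.48 for loop7994 (MUC4), -0.28 for loop8000 (TFRC to ZDHHC19), -0.40 for loop8001 (to ZDHHC19) and -0.29 for loop8007. Each was lower at 72 h than at 6 h. Within replicates 1 and 2 alone none of the 6 passed the threshold (0 calls at adjusted p under 0.05), and within replicates 3 and 4 alone 3 loops of the region did.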

How the results depend on the processing

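Of the 11 loops called at 72 h, 7 (loop7994, loop7997, loop7999, loop8000, loop8001, loop8003 and loop8007) stayed past the threshold in all 26 alternatives run for them, and 4 did not. At 72 h 7 loops were called by DESeq2 and 7 within replicates 1 and 2. Shares over all tested loops are given for the main fit only. Leaving out each library in turn gave 8 to 12 calls at 72 h, 1 to 2 at 6 h (1 without 0 h replicate 1 or 6 h replicate 1) and 3 to 6 for 72 h against 6 h (3 without 6 h replicate 1 or 3 or 72 h replicate 3). At 6 h DESeq2, library totals, the loop length correction, replicates 1 and 2 alone and an adjusted p under 0.01 each called 1 loop, and replicates 3 and 4 alone called 0. For 72 h against 6 h, 6 calls became 1 in DESeq2, 3 with replicates 3 and 4 summed at 72 h or at every time, 0 within replicates 1 and 2, 3 within replicates 3 and 4 and 2 at an adjusted p under 0.01.

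At 72 h the loops' median log2 fold change came to -0.42 in DESeq2, -0.30 with library totals, -0.31 with the loop length correction, -0.43 without a filter, -0.30 within replicates 1 and 2 and -0.43 in a window of 195850000 to 196350000. Leaving out each library gave medians of -0.49 to -0.33 at 72 h, -0.21 to -0.09 at 6 h and -0.31 to -0.22 for 72 h against 6 h. The share of contacts over loops with both anchors in the window was 0.143%, 0.137% and 0.107% at 0 h, 6 h and 72 h, and without single libraries the share over all 21 ranged from 0.176% to 0.186%, 0.164% to 0.177% and 0.137% to 0.140%.

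The log2 ratio of loop7999 to loop8000 changed sign for 72 h against 6 h, to 0.03, with 4 replicates counted separately (exact permutation p = 0.771) or with the replicate block (exact sign flips, p = 0.875), and ranged from -0.07 to 0.06 without single libraries. Its ranges were -0.13 to -0.02 for 72 h and -0.14 to -0.01 for 6 h against 0 h.

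Iron and heme gene loops called at 6 h were 10 with a gene end within 10 kb of the anchor, 10 with any part of the gene over it, 3 with the length correction, 1 within replicates 1 and 2 and 1 within replicates 3 and 4, against 6. At 72 h they were 28 with a gene end within 10 kb, 9 with the length correction and 9 within replicates 1 and 2, against 14. The 28 include loop7999 and loop8000 at TFRC itself, and the 14 do not. For 72 h against 6 h they were 3 in DESeq2 and 3 within replicates 3 and 4, against 6. Without single libraries they ranged from 3 to 8 (3 without 6 h replicate 2), 11 to 14 and 4 to 7. The causes of these differences were not tested.

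Replicate numbers are shared between times, but deviations of same-numbered libraries correlated by 0.013 to 0.122 only, so the numbers were not taken to pair them. With the replicate block, 2 loops were called at 6 h, 11 at 72 h and 7 for 72 h against 6 h, where loop7999 was added (log2 fold change -0.28, adjusted p = 0.048 by edgeR).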
